A study of Mus musculus with 28 samples.

Results

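The 9 genes described here encode the main carriers that move bile salts, organic anions and their conjugates into and out of hepatocytes. They were chosen by name from the roles of their products, with earlier results of these data known. Slco1a1, Slco1a4, Slco1b2, Slc10a1 and Slc22a7 serve uptake at the sinusoidal membrane. Abcb11 and Abcc2 serve efflux at the canalicular membrane, and Abcc3 and Abcc4 serve efflux back to blood at the basolateral membrane. All 9 were found among the 35928 gene symbols of the second liver set and among the 24849 gene rows of the first. They were measured in 14 liver samples out of 28 samples in the series.

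The mice carry human APOBEC3B fused to turboGFP under a tetracycline operator in the ColA1 locus of KH2 embryonic stem cells, and, in the A3B mice, the CAGs-rtTA3 driver, which is active in most adult tissues, so the transgene is not limited to hepatocytes. Animals were young adults fed dox pellets at 625 ppm. In set 2, livers of 6 A3B mice (44, 137, 49, 125, 48 and 153, labelled A3B + CAGS-rtTA) were compared with those of 2 controls (45 and 168, labelled A3B, without the driver), all after 10 days. In set 1, livers of 3 A3B mice (23 and 28 at 14 days, 70 at 10 days) were compared with those of 3 controls labelled 15 days, of which 91 and 92 carry only the A3B transgene and 11 is labelled with both transgenes. The study's table of mice gives the set 1 controls no dox, against their labels. For the set 2 controls the labels and that table give 10 days, while the study's account of its variant calling describes them as without dox, and which holds was not settled here. Most A3B mice had reached a humane end point when they were killed and the controls had not, so the transgene and the terminal state of the animals cannot be told apart.

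Hepatocytes take up conjugated bile salts from sinusoidal blood through the sodium-dependent carrier NTCP, the product of Slc10a1, and take up other organic anions through the OATP carriers of the Slco1 genes and through OAT2, the product of Slc22a7. Bile salts leave across the canalicular membrane through the export pump BSEP (Abcb11), and glucuronide and glutathione conjugates leave through MRP2 (Abcc2). MRP3 (Abcc3) and MRP4 (Abcc4) return conjugates and bile salts to blood and are known as an alternative route in cholestasis.

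The Slco1 uptake genes lie near each other on chromosome 6 of mm10. Slco1b2 spans chr6:141629518-141686646 on the plus strand, Slco1a4 chr6:141805440-141856199 and Slco1a1 chr6:141907282-141946962, both on the minus strand, with 51082 bp between the last pair. The start-site windows of these neighbours are shown because Slco1a1 and Slco1b2, counted per gene, were called lower in set 2 and Slco1a4 was not called, with that of Abcb11, the called efflux gene, for comparison. Each is a 300-base RefSeq promoter window (GRCm38.p6), written 5′ to 3′ along the gene, with AGGTCA and the motif GTTAAT, or their reverse complements, in capitals.
Slco1a1 (chr6:141946913-141947212, minus strand): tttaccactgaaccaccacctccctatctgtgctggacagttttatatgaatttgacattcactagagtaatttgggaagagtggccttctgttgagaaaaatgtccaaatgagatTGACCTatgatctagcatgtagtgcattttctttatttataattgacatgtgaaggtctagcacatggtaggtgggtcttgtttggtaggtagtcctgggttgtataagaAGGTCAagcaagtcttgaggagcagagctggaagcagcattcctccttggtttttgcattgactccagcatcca
Slco1a4 (chr6:141856171-141856470, minus strand): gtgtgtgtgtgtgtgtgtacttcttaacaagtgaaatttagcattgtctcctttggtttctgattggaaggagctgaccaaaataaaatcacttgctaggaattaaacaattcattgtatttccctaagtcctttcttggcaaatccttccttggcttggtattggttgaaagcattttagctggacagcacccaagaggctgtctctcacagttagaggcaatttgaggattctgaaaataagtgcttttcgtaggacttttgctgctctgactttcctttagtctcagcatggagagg
Slco1b2 (chr6:141629268-141629567, plus strand): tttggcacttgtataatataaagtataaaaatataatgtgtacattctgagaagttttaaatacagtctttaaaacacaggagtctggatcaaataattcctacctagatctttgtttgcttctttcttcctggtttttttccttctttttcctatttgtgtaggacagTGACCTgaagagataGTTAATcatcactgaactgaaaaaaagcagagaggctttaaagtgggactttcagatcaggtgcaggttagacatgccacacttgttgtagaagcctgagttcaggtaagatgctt
Abcb11 (chr2:69342567-69342866, minus strand): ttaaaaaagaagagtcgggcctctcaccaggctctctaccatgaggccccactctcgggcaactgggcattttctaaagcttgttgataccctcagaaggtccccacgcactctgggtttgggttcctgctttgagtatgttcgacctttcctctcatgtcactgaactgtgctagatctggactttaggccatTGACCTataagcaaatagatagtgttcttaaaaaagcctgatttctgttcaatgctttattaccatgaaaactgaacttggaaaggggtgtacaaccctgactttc

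Windows were found for 7 of the 9 genes. AGGTCA, the half-site read by many nuclear receptors, occurred on either strand in 5 of their 9 windows, against 16.3% of 32851 promoter windows of the same length. GTTAAT, a half-site of the hepatocyte factor HNF1, occurred in 1 of the 9, that of Slco1b2, against 7.1% of all windows. The Slco1a1 window held AGGTCA or its complement at 2 places and the Slco1a4 window at none. Windows of Slc10a1 and Abcc2, which were not called, also held it. These matches describe letters in the windows only.

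The libraries of set 2 held 65161064 to 118976013 estimated counts. The label check was possible in set 1, where the transgene stood at 0.0928 to 0.144 TPM (transcripts normalised to length and library) in the 3 control livers, liver 11 included, and at 705 to 1705 TPM in the A3B livers. Hepatocyte markers summed to 43541 to 106614 TPM in A3B and 101720 to 157166 TPM in control livers of set 2, and none of the 9 markers tested was called there. The markers did not all move alike. Alb stood at 19353 to 44124 TPM in A3B livers and 107806 and 54669 TPM in controls. Ttr was also below both controls in every A3B liver (1951 to 5418 against 7530 and 7935 TPM). Apoa1 lay on both sides of the controls (8031 to 17763 against 13551 and 14386 TPM). In these bulk samples fewer hepatocytes and less RNA per hepatocyte cannot be told apart. Neutrophil markers summed to 4.09 to 95.6 TPM in the A3B livers and 2.79 to 4.20 TPM in the controls of set 2; their part in the results was not tested. Transcripts under 1 kb, of genes that also have a coding transcript of at least 2 kb, took 17.7 to 25.04% of the TPM of those genes in A3B livers and 13.3 and 15.3% in the controls of set 2, and the part of this in the results was not tested. Erythroid markers, all 3 detected, summed to 92.2 to 621 TPM in A3B livers and to 1201 and 2556 TPM in controls of set 2, with a median log2 fold change of -2.54 and none called by edgeR, and their part was not tested. Liver 48 stood apart from the other A3B livers in markers of other cell types. Its Kupffer cell and macrophage markers summed to 27.1 TPM against 184 to 783 TPM in the other 7 livers of set 2, and its endothelial markers to 21.1 TPM against 134 to 193 TPM. Its 10 most abundant genes took 28.2% of TPM against 15.5 to 19.0% in the other A3B livers and 25.8% in each control. Without liver 48 the same 4 members were called lower and none higher. Liver 49 held the lowest sum of hepatocyte markers in set 2 (43541 TPM) and the highest sums of neutrophil (95.6 TPM) and Kupffer cell and macrophage markers (783 TPM), and it was also the liver with the lowest Slc10a1 and the highest Abcc4. In set 1, A3B liver 23 held the lowest sum of Kupffer cell and macrophage markers (99.3 TPM against 352 to 604 TPM in the other livers). Its sum of endothelial markers was also lowest (126 against 220 to 313 TPM). Pancreatic acinar markers summed to 6.49 to 9.59 TPM in A3B and 52.7 to 119.5 TPM in control livers of set 1, and the 1 marker tested was called lower by limma. The part of the cell makeup of livers 48, 49 and 23, or of acinar RNA, in these results was not tested.

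Of the 9 genes, 4 were lower in A3B livers of set 2 and none was higher, at an adjusted p under 0.05 in edgeR's quasi-likelihood test with Benjamini-Hochberg adjustment over 17376 genes. The 4 were the uptake genes Slco1a1, Slco1b2 and Slc22a7 and the bile salt pump Abcb11. Among all genes tested, 2.41% were called lower and 1.25% higher. In set 1, limma on log2(TPM + 1) over 11507 genes called Slco1a1 and Slc22a7 lower and no member higher, against 1.86% lower and 6.07% higher of all genes. The median gene had a log2 fold change of 0.21 in set 2 and 0.39 in set 1, and total counts only moved the set 2 median to 0.67. At an unadjusted p under 0.05 the same 4 members were lower and none higher in set 2, against 9.88% lower and 13.1% higher of all genes, and DESeq2 called the same 4 lower. In set 1, 4 members were lower at an unadjusted p under 0.05, with Slco1b2 and Abcb11 added (8.12% of all genes), and 2 were higher, Slco1a4 and Abcc4 (24.5%). Over all genes the calls of set 2 were 218 higher and 418 lower, against 878 and 241 with total counts only and 1290 and 1061 with DESeq2. The calls of set 1 were 699 higher and 214 lower, against 304 and 371 when each liver was centred on its median.

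**Figure D1:**
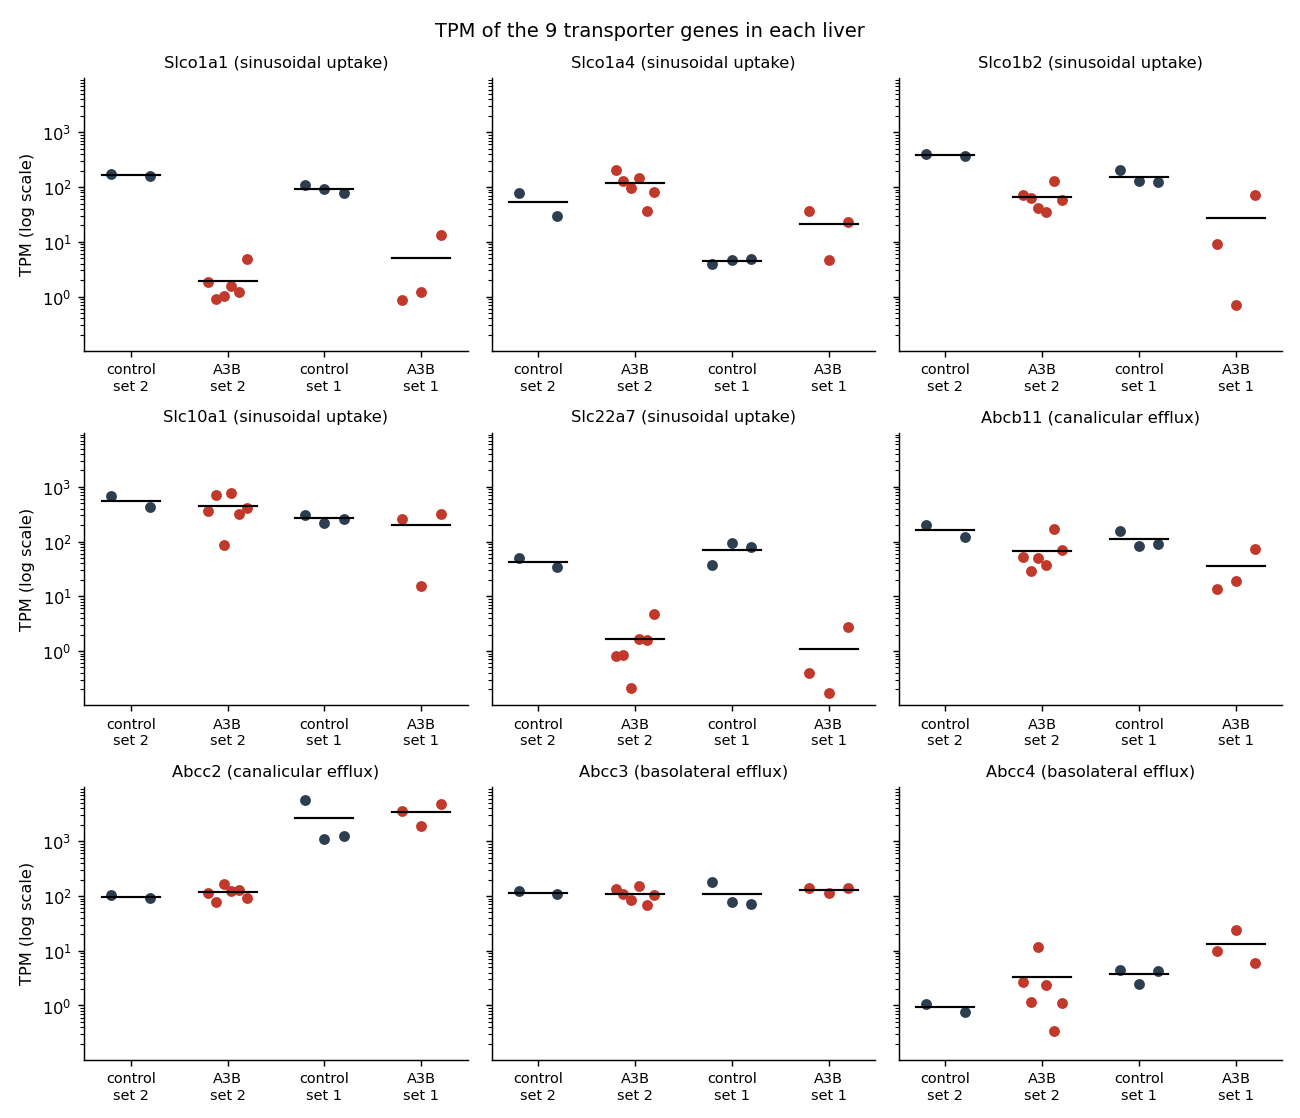
TPM on a log axis for each of the 9 genes, with a point per liver (dark, control; red, A3B) and a line at the group mean, for sets 2 and 1. Slco1a1 and Slc22a7 lay at or below 13.3 TPM in all 9 A3B livers and at or above 34.2 TPM in all 5 controls, while Slc10a1 and Abcc3 overlapped.

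Slco1a1, which encodes OATP1A1, an organic anion carrier known to be more abundant in male mouse liver, showed the largest change among the 9 genes in set 2. Its level was 1.85, 0.889, 1.01, 1.57, 1.23 and 4.86 TPM in A3B livers 44, 137, 49, 125, 48 and 153, and 175 and 162 TPM in controls 45 and 168. Every A3B liver was thus far below both controls, and liver 153 was the highest of the 6. The log2 fold change was -6.77 (SE 0.57, edgeR adjusted p 0.00297), 109.5-fold lower. In set 1 the gene stood at 0.864, 1.20 and 13.3 TPM in A3B livers 23, 28 and 70 and at 110, 91.8 and 76.3 TPM in controls 11, 91 and 92. The groups did not overlap, and liver 70, from the shorter exposure, was nearest to the controls. The fold change there was -4.58 on the log2(TPM + 1) scale (SE 0.74, limma adjusted p 0.0233), and the call was lost without control 91, control 92 or A3B liver 23 (adjusted p 0.115, 0.118 and 0.0741). The values overlapped between livers of high and low Y-chromosome expression: the 3 A3B livers above 10 TPM of Y transcripts held 0.889 to 4.86 TPM of Slco1a1 and the 3 below held 1.01 to 1.85 TPM. Of the 9 genes, only Slc10a1 separated these A3B livers.

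Slc22a7, which encodes the organic anion carrier OAT2, was the other uptake gene called in both sets. In set 2 its level was 0.802, 0.829, 0.209, 1.67, 1.59 and 4.69 TPM in the A3B livers, in the same order as above, and 49.3 and 34.2 TPM in the controls. Liver 153 was again the highest A3B liver and no A3B value reached a control. Set 2 gave a log2 fold change of -4.99 (SE 0.86, edgeR adjusted p 0.0194). Set 1 gave 0.403, 0.172 and 2.71 TPM in the A3B livers and 38.0, 95.2 and 78.9 TPM in the controls, a fold change of -5.20 (SE 0.54, limma adjusted p 0.0109). The set 2 call was lost without control 45, control 168 or A3B liver 137 (adjusted p 0.114, 0.109 and 0.0511), and the set 1 call without control 91 or 92 (0.0746 and 0.0590).

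Slco1b2, which encodes the liver-specific carrier OATP1B2, fell in set 2 and was below every control in both sets. A3B livers of set 2 held 72.2, 64.2, 41.4, 34.8, 128 and 57.8 TPM against 408 and 368 TPM. Liver 48 was the highest A3B liver. Its log2 fold change was -2.91 (SE 0.50, edgeR adjusted p 0.0177), a call lost without control 45, control 168 or A3B liver 137 (0.0898, 0.122 and 0.0527). In set 1 the A3B livers held 9.26, 0.698 and 71.5 TPM and the controls 201, 131 and 123 TPM, and with this spread the fold change of -3.79 (SE 1.18) had a limma adjusted p of 0.0816. Without A3B liver 70 it was -5.16 with an adjusted p of 0.0178, and without A3B liver 28 it was -2.45 with an adjusted p of 0.0878.

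Slco1a4, which encodes OATP1A4 and neighbours Slco1a1, had no call in either set, and its values overlapped the controls in both. Set 2 gave 209, 128, 95.7, 148, 35.8 and 82.4 TPM in A3B livers and 77.6 and 29.7 TPM in controls. In all, 5 A3B livers exceeded both controls and liver 48 lay between them. The log2 fold change of 0.62 (SE 0.39, edgeR adjusted p 0.367) left a range of 0.897 to 2.63 fold within 2 SE, and the value was 1.22 without control 45 and 0.07 without control 168. In set 1 it was at 36.3, 4.73 and 23.2 TPM in the A3B livers and at 3.95, 4.69 and 4.81 TPM in the controls, so livers 23 and 70 were high and liver 28 was not. The difference of 1.66 (SE 0.65) missed the threshold (limma adjusted p 0.129) and passed it without liver 28 (2.46, adjusted p 0.0143). The ratio of Slco1a4 to Slco1a1 TPM was 16.9 to 144 in the A3B livers of set 2 and 0.183 and 0.442 in its controls. Of the 31-base words in their transcripts, 4% of those of Slco1a1 and 5.03% of those of Slco1a4 also occur in another gene. A further neighbour, Slco1a6, stood at 5.11 to 22.0 TPM in A3B livers and at 2.53 and 2.95 TPM in controls, a log2 fold change of 1.57 that was not called (edgeR adjusted p 0.21).

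Slc10a1, the highest of the 9 genes in control livers of set 2, was not called in either set. It stood at 365, 700, 87.2, 778, 318 and 415 TPM in the A3B livers and at 672 and 429 TPM in the controls. Livers 137 and 125 exceeded both controls and the other 4 lay below both, with liver 49 lowest. The 3 A3B livers above 10 TPM of Y transcripts held 415 to 778 TPM and the 3 below held 87.2 to 365 TPM, while of the controls the one above held 429 TPM and the one below 672 TPM. The log2 fold change of -0.63 (SE 0.66, edgeR adjusted p 0.606) covers 0.258 to 1.62 fold within 2 SE, so a moderate fall cannot be told from none. In set 1 livers 23 and 70 held 258 and 316 TPM, close to the controls at 307, 221 and 263 TPM, and liver 28 held 15.1 TPM. The set 1 value of -1.26 (SE 1.05, limma adjusted p 0.424) became 0.13 without liver 28. In that liver the hepatocyte markers summed to 4546 TPM, against 14149 to 17410 TPM in the other A3B livers and 16265 to 22443 TPM in controls. Its Hpd, a hepatocyte enzyme of tyrosine breakdown, stood at 360 TPM against at least 7462 TPM in the other 5 livers of set 1. The epithelial claudin Cldn4 stood at 740 TPM there against at most 2.24 TPM, and the macrophage marker Cd68 at 527 TPM against at most 51.2 TPM, while the other 6 genes of the Kupffer cell and macrophage list lay below every control there. Among the livers of set 1, liver 28 also held the lowest Slco1b2 and Slc22a7 and the highest Abcc4, and the part of its cell makeup in these values was not tested.

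Abcb11, the canalicular bile salt pump, fell by 2.09 on the log2 scale in set 2 (SE 0.35, edgeR adjusted p 0.0162). Its estimated counts were 16847, 9155, 12674, 10830, 15689 and 21020 in A3B livers and 78292 and 47744 in controls, without overlap. The call was lost without control 45 or control 168 (adjusted p 0.142 and 0.0804). By TPM the A3B livers held 52.2, 29.4, 50.8, 37.0, 168 and 69.4 against 200 and 123, so that liver 48 lay within the control range. In liver 48, 130 of the 168 TPM were assigned to a 648-base non-coding transcript at the 3′ end of the gene (chr2:69238310-69239078), which held at most 4.84 TPM in the other livers. Transcripts of at least 1 kb gave 38.2 TPM in liver 48. Per transcript, the coding transcript of 4893 bases was at -3.08 (edgeR adjusted p 0.0537). The coding transcript of 4963 bases was at -0.42 (edgeR adjusted p 0.677), with 9.11 to 28.0 TPM in A3B livers and 15.3 and 19.0 TPM in controls. With TPM in place of counts the limma fold change of the gene was -1.45 with an adjusted p of 0.133. In set 1 the A3B livers held 13.5, 19.0 and 72.6 TPM and the controls 157, 81.3 and 88.5 TPM, all A3B values being lower, but the fold change of -1.92 (SE 0.62) was not called (limma adjusted p 0.0877), and it passed without A3B liver 70 (-2.62, adjusted p 0.0208).

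**Figure D2:**
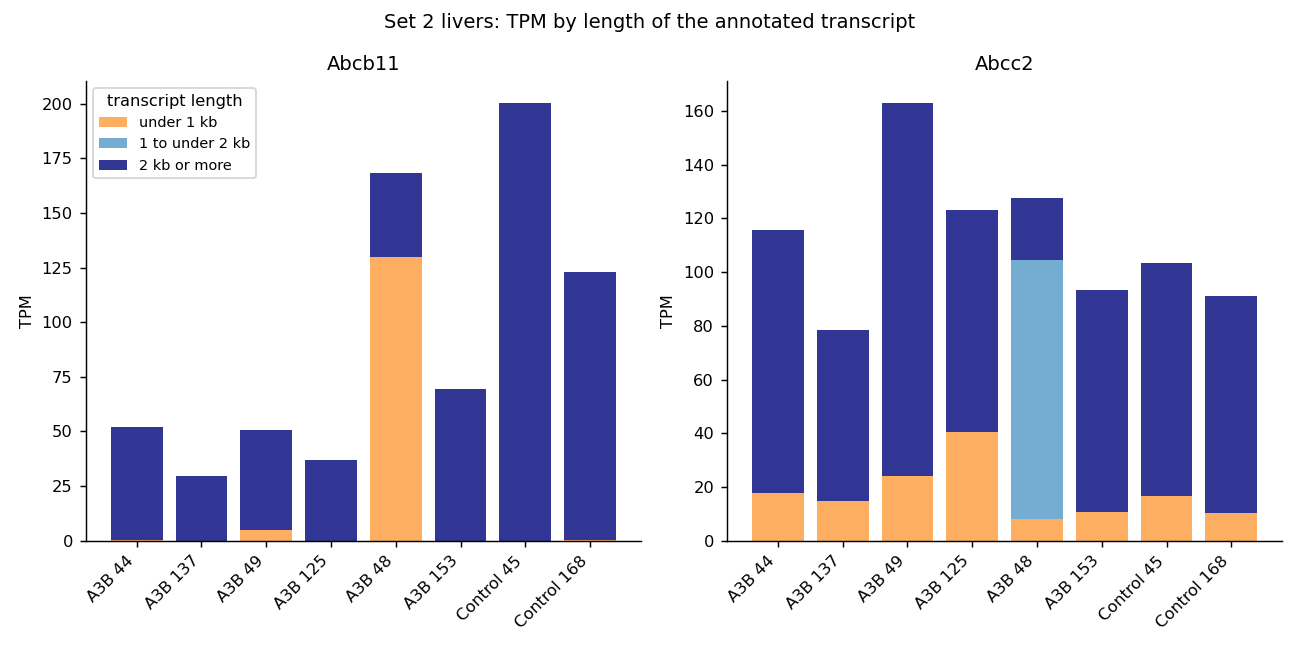
Stacked bars of TPM per set 2 liver for Abcb11 and Abcc2, split by the length of the annotated transcript (under 1 kb, 1 to under 2 kb, 2 kb or more). Liver 48 differs from the other 7 in both genes, with 130 TPM of Abcb11 under 1 kb and 96.3 TPM of Abcc2 between 1 and 2 kb.

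Abcc2, the canalicular conjugate pump, was not called. Set 2 A3B livers held 116, 78.5, 163, 123, 128 and 93.5 TPM and the controls 103 and 91.0 TPM, with 4 A3B livers above both controls and 1 below. The log2 fold change was -0.38 (SE 0.37, edgeR adjusted p 0.582). Its sign depended on the scaling and was 0.11 with total counts only. In liver 48, 96.3 of 128 TPM lay in a coding transcript of 1926 bases that was at 0 in the other 7 livers. In set 1 the gene read 3630, 1876 and 4767 TPM in A3B livers and 5732, 1090 and 1257 TPM in controls, above Alb in 4 of the 6 livers and below it in controls 91 and 92 (Alb stood at 986 to 2037 TPM). Its set 1 level was therefore not compared with that of set 2. The fold change there was 0.68 (SE 0.68, limma adjusted p 0.505), and with 1 liver left out it ran from 0.25 without control 91 to 1.45 without control 11.

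Abcc3 and Abcc4, the basolateral efflux genes, were not called in either set. Abcc3 stood at 132, 110, 83.9, 152, 68.0 and 103 TPM in A3B livers of set 2 and at 123 and 107 TPM in controls, with 2 A3B livers above and 3 below both. In liver 48, 60.9% of the Abcc3 TPM lay in transcripts under 1 kb, against 10.8 to 25.5% in the other livers of set 2. The log2 fold change of Abcc3 was -0.62 (SE 0.43, edgeR adjusted p 0.418) in set 2, and ran from -0.83 to -0.13 over other processing choices. In set 1 it was 0.39 (SE 0.41, limma adjusted p 0.529), and was 0.82 without control 11, 0.14 without control 92 and 0.0058 with each liver centred on its median. Abcc4 was the lowest of the 9 genes in control livers of set 2, at 1.08 and 0.771 TPM. The A3B livers held 2.71, 1.16, 11.9, 2.34, 0.342 and 1.12 TPM, so 5 exceeded both controls, liver 49 by the most, and liver 48 was below them. The log2 fold change was 1.45 (SE 1.13, edgeR adjusted p 0.469) and 0.26 without liver 49. In set 1 Abcc4 was at 9.95, 24.3 and 6.09 TPM in the A3B livers, above the controls at 4.39, 2.42 and 4.24 TPM, with a fold change of 1.45 (SE 0.49, limma adjusted p 0.0962). That fold change ran from 0.94 to 1.86 with a liver left out.

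**Figure D3:**
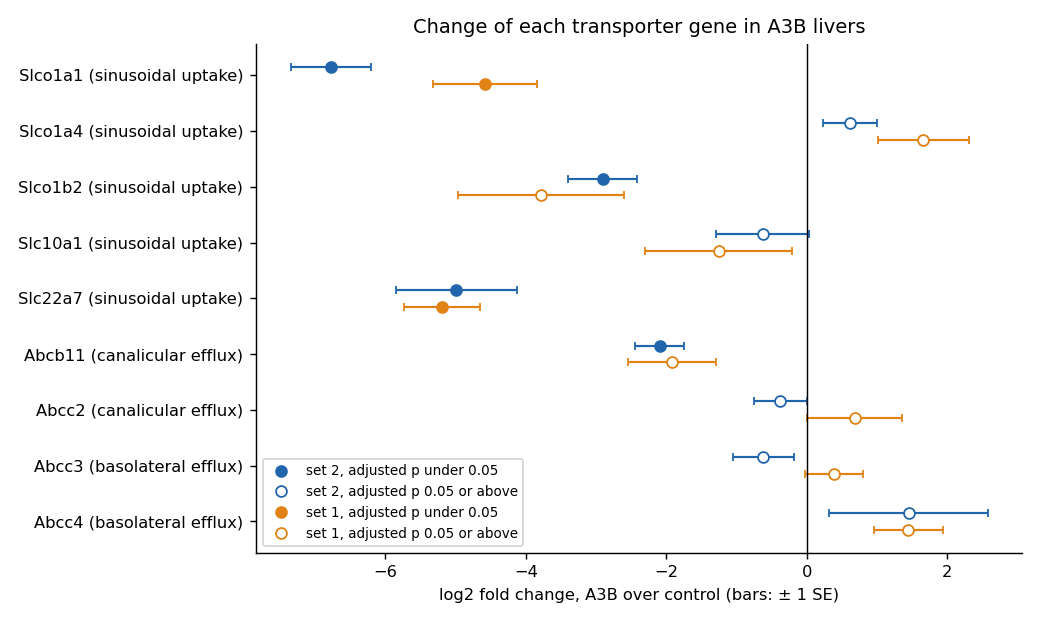
Log2 fold change of A3B over control for each gene, with bars of 1 SE, in set 2 (blue, edgeR) and set 1 (orange, limma on log2(TPM + 1)). Filled points have an adjusted p under 0.05: Slco1a1, Slco1b2, Slc22a7 and Abcb11 in set 2, and Slco1a1 and Slc22a7 in set 1.

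Counted by overlap of TPM, 3 of the 9 genes had every A3B liver below every control in set 2 (5.42% of all genes tested) and none had every A3B liver above (24.3%). In set 1 these counts were 4, with Abcb11 added (10.3%), and 1, Abcc4 (28.5%). An exact permutation test for a single gene cannot fall below 0.0357 in set 2 or 0.1 in set 1. The sets differ in mice, exposure and processing, and their fold changes are on different scales.

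Uptake was then set against efflux within each liver as the mean log2(TPM + 0.1) of the 5 uptake genes less that of the 4 efflux genes. The difference was 2.10 and 1.92 in the controls of set 2 and -0.63, -0.10, -2.38, -0.47, -0.50 and 0.19 in A3B livers 44, 137, 49, 125, 48 and 153. In set 1 the controls were at -1.37, 0.03 and -0.29 and the A3B livers at -3.44, -5.77 and -2.19. Within each set all A3B livers were below all controls, with a group difference of -2.66 in set 2 and -3.26 in set 1. The mean of the uptake genes moved by -2.77 and -3.07 in sets 2 and 1, the canalicular mean by -0.62 and -0.64, and the basolateral mean by 0.41 and 1.02. Canalicular means of A3B and control livers overlapped in both sets. In set 1, control 11 was at 9.89 and controls 91 and 92 at 8.22 and 8.38. Basolateral means overlapped in set 2, where liver 49 was highest (4.99) and liver 48 lowest (2.46). In set 1 the lowest A3B basolateral mean, 4.87, lay just above the highest control, 4.84. The set 2 difference was -1.70 without Slco1a1 and -1.20 with medians in place of means. The set 1 difference ran from -4.48 to -2.40 over other settings, which included leaving out each member. The set 1 scores include Abcc2 at 1090 to 5732 TPM. The set 2 score of liver 48 includes Abcb11 at 168 TPM, of which 130 TPM lay in a 648-base non-coding transcript.

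**Figure D4:**
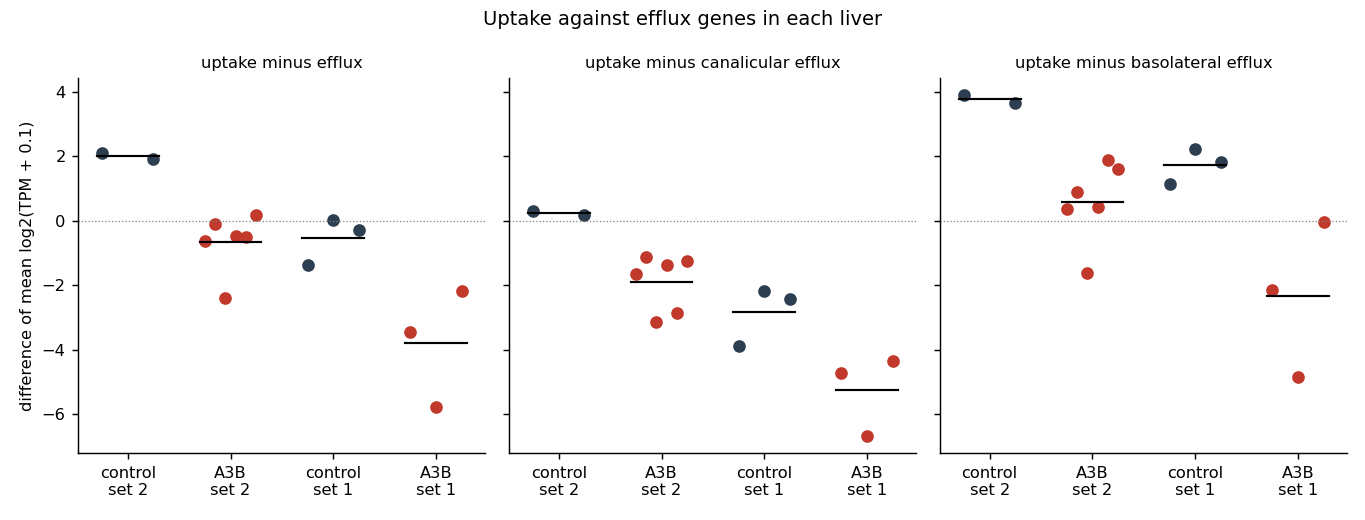
Difference in mean log2(TPM + 0.1) between uptake genes and all efflux, canalicular or basolateral genes, with a point per liver and a line at the group mean. In the left panel A3B livers of set 2 lie at or below 0.19 and the controls at or above 1.92.

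For the genes of import and export of conjugated bile salts, the TPM ratio of Slc10a1 to Abcb11 was 3.35 and 3.49 in the controls of set 2. Transport itself was not measured. The A3B livers gave 6.99, 23.8, 1.72, 21, 1.89 and 5.98, on both sides of the controls. Counting only transcripts of at least 1 kb placed liver 48 at 8.33 and left liver 49, at 1.88, as the only A3B liver below the controls. In set 1 the ratio was 19.0, 0.793 and 4.36 in A3B livers 23, 28 and 70, again on both sides of the controls. Controls 11, 91 and 92 gave 1.95, 2.72 and 2.97.

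The genes most like Slc10a1 over the 8 livers of set 2, by Pearson's r of log2 CPM among 4178 genes with a mean of at least 5, were Hrg (0.964), Oxa1l (0.960), Dbt (0.958), Aspg (0.957) and Btd (0.956). Over the 6 livers of set 1 the same r were 0.960, 0.885, 0.775, 0.927 and 0.882. Among the 5 genes most like Abcb11 were Chdh (0.992), Ghr (0.984), Lpgat1 (0.982) and Parva (0.979), with 0.850, 0.967, -0.01 and 0.964 in set 1. The livers share the A3B contrast and the values are given as a description.

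Of 8 other canalicular transporters, edgeR called 1 lower in set 2 and none higher (3 lower and 0 higher at an unadjusted p under 0.05, 2 lower and 0 higher by DESeq2). This was the water channel Aqp8, which fell by 3.60 (edgeR adjusted p 0.0267), from 43.8 and 249 TPM in controls to 3.14 to 33.2 TPM in A3B livers, and which was also lower in set 1 (-3.56, limma adjusted p 0.0179), a call lost without control 91 or control 92 (adjusted p 0.0936 and 0.0888). Of 6 other basolateral efflux transporters, edgeR called 1 lower in set 2 and none higher, while at an unadjusted p under 0.05, and likewise by DESeq2, 1 was lower and 1 higher. This was Abcc6, which fell by 2.64 (edgeR adjusted p 0.0274) and was at -3.16 in set 1 (limma adjusted p 0.055), which passed without A3B liver 28 or 70 (-2.23 and -4.06, adjusted p 0.0492 and 0.0178). Leaving out each liver in turn, Aqp8 and Abcc6 lost their set 2 calls in 3 and 5 of 8 fits, Aqp8 being at -2.16 without control 45. The carnitine carrier Slc22a5 was higher in set 1, at 1.94 (limma adjusted p 0.0245). The other canalicular and basolateral lists had median log2 fold changes of -0.85 and 0.56 in set 2. Slc51b, a subunit of the basolateral bile salt transporter OST, had a value of 3.38 that was not called (edgeR adjusted p 0.0791).

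Of 7 genes for scaffolds that hold transporters at the membrane, Rdx (radixin), Pdzk1 and Slc9a3r1 were lower in set 2, by 1.06, 2.28 and 1.56 (edgeR adjusted p 0.0391, 0.0462 and 0.0464), and none was called in set 1, where 2 were lower at an unadjusted p under 0.05. Each of the 3 lost its call in 5 of 8 fits that left out a liver. Of 10 other alternatives, Rdx and Pdzk1 each lost the call in 6 and Slc9a3r1 in 5. Of 10 genes of bile acid synthesis and conjugation, Hsd3b7 and Baat were lower in set 2, by 2.06 and 1.42 (edgeR adjusted p 0.0162 and 0.0249), and Hsd3b7 and Cyp7b1 in set 1, by 2.29 and 3.10 (limma adjusted p 0.0309 and 0.0109). Hsd3b7 lost its set 1 call without control 91, control 92 or A3B liver 23 (adjusted p 0.143, 0.137 and 0.0924). None of 11 transcriptional regulators of transporters was called in either set by edgeR or limma. At an unadjusted p under 0.05, 2 of them were lower in set 2 and DESeq2 called 0, and in set 1 1 was higher and 1 lower. Their lowest p in set 2 belonged to Ahr (-0.75, edgeR adjusted p 0.18) and Ppara (-1.05, edgeR adjusted p 0.187). With a liver left out, these set 2 values ran from -1.17 to -0.40 for Ahr and from -1.37 to -0.84 for Ppara. Over other processing choices they ran from -0.95 to -0.31 and from -1.36 to -0.61. None of 8 NRF2 targets was called by edgeR, with 1 higher and 1 lower at an unadjusted p under 0.05 and 1 lower by DESeq2. Gclm was at -0.92 in set 2 (edgeR adjusted p 0.115) and ran from -1.03 to -0.02 over other processing choices. Its mean level was 174 TPM in A3B livers and 176 TPM in controls. Slc7a11 was at 4.62 (edgeR adjusted p 0.188), which was 2.46 without liver 49 and 1.08 with limma on log2(TPM + 1). Of 6 targets of CAR and PXR, edgeR called Cyp3a11 lower in set 2 (-2.78, adjusted p 0.0259) and none higher, with 4 lower at an unadjusted p under 0.05 and 3 by DESeq2. In set 1 Cyp3a11 was at -0.47 and not called (limma adjusted p 0.70). With a liver left out, Hsd3b7, Baat and Cyp3a11 lost their set 2 calls in 2, 4 and 3 of 8 fits. Among 7 male-predominant genes none was called by edgeR in set 2 (3 lower at an unadjusted p under 0.05, 1 by DESeq2), where Hsd3b5 was at -6.24 (adjusted p 0.0943, or -9.22 and 0.0116 without A3B liver 153) and Mup20 at -3.65 (adjusted p 0.136), and among 10 female-predominant genes none was called either (2 lower unadjusted, 0 by DESeq2), with A1bg at -9.76 (adjusted p 0.0589) and Cyp3a44 at -5.60 (adjusted p 0.156). The A1bg value rests on control 45, its controls standing at 877 and 0.436 TPM, and was -0.11 without that liver and -12.17 without A3B liver 48 (edgeR adjusted p 0.992 and 0.0256). In set 1, 2 of the male-predominant genes were called lower, Hsd3b5 at -5.78 (limma adjusted p 0.0277) and Selenbp2 at -5.05 (limma adjusted p 0.0342). Hsd3b5 lost that call without control 91, control 92 or A3B liver 23 (adjusted p 0.115, 0.118 and 0.0834). None of the female-predominant genes was called by limma in set 1, and 0 had an unadjusted p under 0.05.

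In control livers of set 2 the order of mean TPM was Slc10a1 (551 ± 172, SD, n = 2), Slco1b2 (388 ± 28.1), Slco1a1 (169 ± 9.49), Abcb11 (162 ± 54.8), Abcc3 (115 ± 11.3), Abcc2 (97.1 ± 8.71), Slco1a4 (53.6 ± 33.9), Slc22a7 (41.8 ± 10.7) and Abcc4 (0.926 ± 0.22). Slc10a1 and Slco1b2, Slco1a1 and Abcb11, Abcb11 and Abcc3, Abcc3 and Abcc2, and Slco1a4 and Slc22a7 lay within their SDs of each other. In A3B livers (n = 6) Slco1a1 fell to the place before the last, at 1.90 ± 1.49 TPM, with Slc22a7 last at 1.63 ± 1.60 TPM.

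Outside the liver the levels of the basolateral efflux genes were read by tissue. In set 2 pancreas Abcc3 stood at 32.7 to 51.5 TPM in 6 A3B and at 2.99 and 7.09 TPM in 2 control samples, and Abcc4 at 2.62 to 4.05 and at 0.174 and 0.546 TPM. Both were grouped by sample title, since the genotype labels of the control pancreases name both transgenes and those of A3B pancreases 44 and 137 name only A3B. A 567-base non-coding transcript near the 3′ end of Abcc3 held 12.6 to 32.6 of its TPM in A3B pancreases. In control pancreases it held 2.48 and 5.02 TPM, and its part in the difference was not tested. On log2(TPM + 1) the median gene differed by 1.75 in this pancreas comparison. The 10 most abundant genes took 17.7 to 31.7% of TPM in A3B and 46.9 and 47.8% in control pancreases; their part in the difference was not tested. Duct markers, taken from the cholangiocyte list of 7 genes, summed to 1527 to 3283 TPM in A3B and to 59.2 and 111 TPM in control pancreases. Among them the duct keratin Krt19 stood at 187 to 498 TPM against 5.28 and 28.1 TPM. Acinar markers summed to 21684 to 41602 TPM in A3B and to 257062 and 268034 TPM in control pancreases. Marker sums of macrophages (191 to 429 against 2.76 and 14.9 TPM), fibroblasts (833 to 1290 against 38.7 and 186 TPM) and endothelium (80.1 to 119.6 against 6.97 and 22.1 TPM) were also higher in every A3B pancreas. The part of these cells in the Abcc3 and Abcc4 values was not tested. In set 1 lung Abcc3 was at 37.6 to 47.4 TPM in 3 A3B and 25.7 to 35.7 TPM in 3 control samples, and Abcc4 at 27.4 to 39.7 and 16.9 to 20.1 TPM. Endothelial markers summed to 2111 to 2779 TPM in A3B and 783 to 974 TPM in control lungs, and their part in these values was not tested. Abcc2 ranged from 1.10 to 55.2 TPM in control and from 1.68 to 160 TPM in A3B lungs. The hepatocyte marker Alb was at 0.331, 245 and 23.6 TPM in control lungs 87, 88 and 91 and at 3.83, 190 and 216 TPM in A3B lungs 69, 70 and 74, and the part of liver RNA in these Abcc2 values was not tested. Each of the other 6 members stayed at or below 8.75 TPM in lung. No test was made across tissues.

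**Figure D5:**
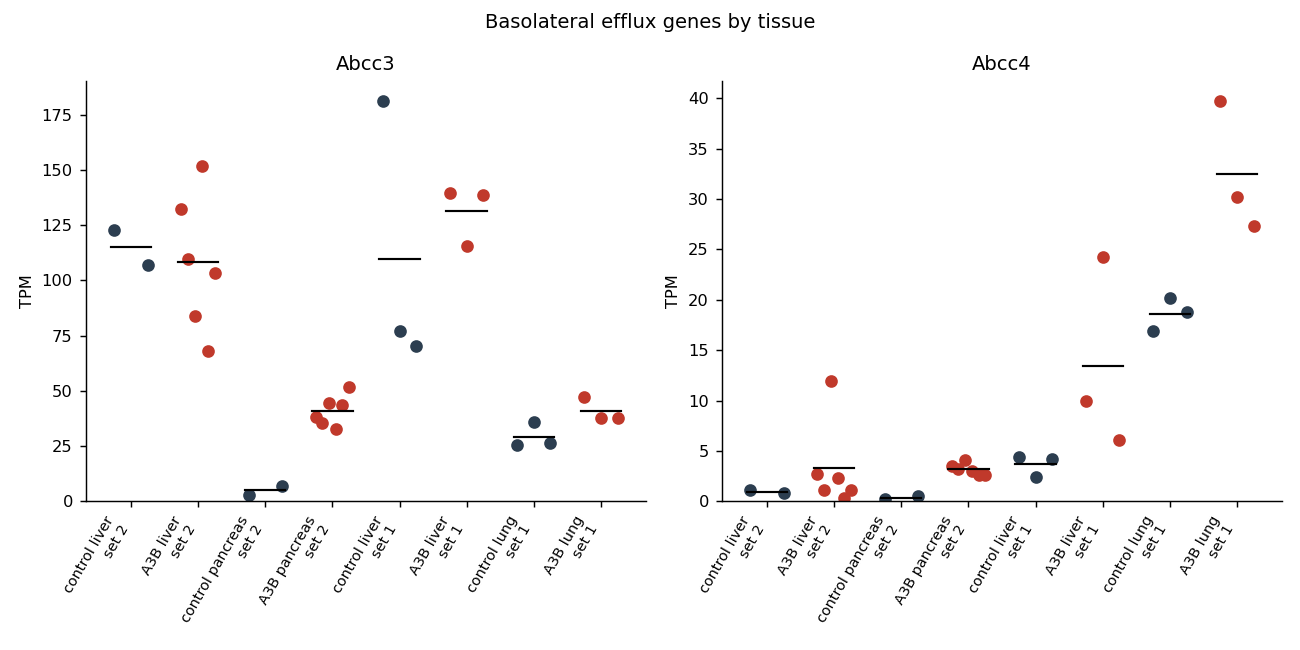
TPM of Abcc3 and Abcc4 in liver, pancreas (set 2) and lung (set 1), with a point per sample (dark, control; red, A3B) and a line at the group mean. In pancreas and lung every A3B sample lies above every control for both genes, and in liver Abcc3 overlaps in both sets. The share of all genes that separate in this way in pancreas or lung was not counted. On log2(TPM + 1) the median gene differed, A3B less control, by 1.75 in pancreas and by -0.06 in lung.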

How the data were processed

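Livers were analysed in 2 sets. For set 2 the authors quantified reads with kallisto and deposited estimated counts and TPM per transcript. For set 1 the authors aligned reads with STAR to mm10 and deposited a table of TPM per gene, from alignments whose file headers name duplicate removal. Total RNA libraries were stranded. Of 119414 transcripts, 97.75% were assigned to genes with GENCODE M21, and 0.692 to 1.46% of liver counts had no gene. Counts were summed per gene, rounded and tested with edgeR 4.0.16 (TMM, robust quasi-likelihood, filterByExpr). Set 1 was tested with limma 3.58.1 (trend, robust) on log2(TPM + 1) for genes that averaged 1 TPM or more. A low gene's change is understated on that scale. R 4.3.3 was used. Both fits were run on simulated data, for set 2 at dispersions below the common dispersion of 0.325 of these livers and for set 1 with the SD of each gene capped. Those runs therefore do not show how the fits behave at the spread of these data. Adjusted p under 0.05 was called. Replicates are separate mice. The members and lists were chosen with earlier results of these data known. Named genes were the members and, of each list, up to 4 called in set 2 or else the 2 with the smallest p, and Slco1a6, Slc51b, Slc22a5, Cyp7b1 and Selenbp2 were added after their values were seen. Alternatives covered scaling, filters, pseudocounts, DESeq2 1.42.0, a Y-expression covariate, transcripts and each liver left out. Some results for other uptake carriers are not reported here.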

Additional observations from a re-analysis of the deposited data

Results flagged for a closer look

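Among the A3B livers of set 2, single samples stood far from the other 5 in several members: liver 153 for Slco1a1 (4.86 TPM) and Slc22a7 (4.69 TPM), liver 48 for Abcb11 (168 TPM) and liver 49 for Abcc4 (11.9 TPM). Liver 49 was also far below the others in uptake minus efflux, at -2.38. A3B pancreas 44 stood apart at low levels of Slco1a1 (1.05 TPM), Slco1b2 (3.67 TPM) and Slc22a7 (0.46 TPM). That sample also held the highest Alb (634 TPM) and the highest sum of hepatocyte markers (1195 TPM) of the 8 pancreases, and the part of liver RNA in its values was not tested. Chance alone sets about 1 in 20 such groups apart. In samples outside the liver comparisons, the A3B means of Abcc3 in pancreas (41.0 TPM) and of Abcc3 and Abcc4 in lung (40.9 and 32.5 TPM) came from samples that all exceeded their controls. The share of all genes that did so in these tissues was not counted. On log2(TPM + 1) the pancreas difference of Abcc3 was 2.87 against 1.75 for the median gene there.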

How the results depend on the processing

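No paired analysis was possible because the A3B and control livers compared share no mouse number. The number of genes called in set 2 was 636, and became 2351 with DESeq2, 1119 with total counts only, 96 of 59526 per transcript, and 73 to 1596 with 1 liver left out. Members called lower were 4, 1 per transcript and 1 to 4 with a liver left out. Slco1a1 kept its call in all 18 of these alternatives. Slco1b2, Slc22a7 and Abcb11 lost theirs without control 45 (adjusted p 0.0898, 0.114 and 0.142) or control 168 (0.122, 0.109 and 0.0804) and per transcript, and Slco1b2 and Slc22a7 also without liver 137 (0.0527 and 0.0511). In set 1, 913 genes were called, 0 without the filter on TPM, 1592 with Y expression as a covariate and 1 to 1562 with a liver left out; members called lower were 2, then 0 without the filter and 0 to 4, and members called higher 0 to 1. The set 2 uptake-efflux difference of -2.66 was -1.20 with medians, -1.70 without Slco1a1 and -3.63 without Slco1a4. Signs turned for Abcc2 in set 2 (0.11 with total counts, 0.23 on TPM, 0.17 on transcripts of at least 1 kb) and in set 1 for Gclm when median-centred (-0.34) and with the Y covariate for Rdx (0.31), Ahr (0.36), Ppara (0.33), Cyp3a11 (0.28) and Mup20 (0.31). With a liver left out, values ran from -6.68 to 4.40 for Cyp3a44 and -4.70 to 0.71 for Mup20 in set 2. In set 1 they ran from -2.02 to 0.13 for Slc10a1, -0.32 to 0.31 for Rdx, -0.30 to 0.36 for Ahr, -0.47 to 0.33 for Ppara, -0.15 to 0.31 for Gclm, -1.38 to 0.28 for Cyp3a11, -2.35 to 0.31 for Mup20 and -3.62 to 0.15 for Cyp3a44. The causes were not tested, except that in set 1 only control 11 passes the Y threshold, so that the covariate amounts to leaving that liver out. The Y threshold of 10 TPM and the transcripts of at least 1 kb were chosen after seeing the data. With 2 controls in set 2, the smallest exact p is 0.0357.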
